A study of Mus musculus with 25 samples.

Results

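The family of mir-15, mir-16, mir-195 and mir-497 was followed in the blood of ageing mice through 6 rows of a count table of 1193 microRNA hairpins. The 6 rows were chosen by locus and not by their counts: mmu-mir-15a and mmu-mir-16-1, mmu-mir-15b and mmu-mir-16-2, and mmu-mir-195a and mmu-mir-497a, which form 3 clusters of neighbouring hairpins. All 6 were found in the table, had counts in all 25 libraries and passed the filter on low counts. Blood was taken from C57BL/6 males (C57BL/6 is an inbred strain) aged 2, 9, 15, 24 and 30 months, and 5 libraries were made at each age. No treatment or altered allele is given for any group. Each library has a sample number of its own, but whether each number is a separate animal is not stated, so p-values measure the spread between these samples. The question put to the data is how the family's levels, and the balance among its members, differed between ages.

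A microRNA is a short RNA cut from a hairpin precursor, and it pairs with messenger RNAs mainly through its seed, the bases just after its first one, and so lowers their output. Members of this family share a seed and are known for repressing cyclins and other drivers of the cell cycle, and mir-15a and mir-16 also repress the survival factor BCL2. The mir-15a/mir-16-1 locus lies in a region often deleted in chronic lymphocytic leukaemia in people, and miR-16 is abundant in red blood cells.

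The mature 5′ strands of the family are shown because they explain which rows can be told apart. They are from RefSeq (assembly GRCm38.p6), where all 6 hairpins were matched, and capitals mark the seed, bases 2 to 8 from the 5′ end.
miR-15a-5p: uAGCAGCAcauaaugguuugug
miR-15b-5p: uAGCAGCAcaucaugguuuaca
miR-16-5p: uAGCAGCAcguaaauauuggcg
miR-195a-5p: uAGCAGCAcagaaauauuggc
miR-497a-5p: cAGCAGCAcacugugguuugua
miR-322-5p: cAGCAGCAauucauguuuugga
The 6 hairpins thus give 5 different 5′ strands with 1 seed. The last line is no member of the family rows but holds the same seed and is described further on. Counting positions from the 5′ end, miR-15a-5p and miR-15b-5p differ by A12C, G20A, U21C and G22A. The strands of miR-16 and mir-195a are the closest pair of different strands, with G10A and U11G over the 21 positions they share.

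mir-16-1 and mir-16-2 give the same 5′ strand from different hairpins. In their hairpin sequences from the same source, capitals mark that strand.
mir-16-1: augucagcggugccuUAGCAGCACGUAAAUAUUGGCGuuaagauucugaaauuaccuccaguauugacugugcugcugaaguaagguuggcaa
mir-16-2: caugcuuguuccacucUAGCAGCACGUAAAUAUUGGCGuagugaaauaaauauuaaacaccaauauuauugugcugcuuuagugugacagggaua
A read of the 5′ strand fits both hairpins equally well, and a read of the other strand fits 1 of them. The table gives 1 value for each hairpin and does not separate its strands.

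The loci lie on 3 chromosomes, given here in GRCm38.p6 as RefSeq places them. mir-15a (chr14:61632027-61632110, minus strand) and mir-16-1 (chr14:61631880-61631972, minus strand) are 54 bases apart within Dleu2, a long non-coding RNA gene. mir-15a overlaps no exon of 15 annotated Dleu2 transcripts, and mir-16-1 overlaps an exon of 1 of them. mir-15b (chr3:69009772-69009835, plus strand) and mir-16-2 (chr3:69009902-69009996, plus strand) are 66 bases apart in introns of Smc4, which encodes a condensin subunit. mir-497a (chr11:70234717-70234800, plus strand) lies 241 bases before mir-195a (chr11:70235042-70235135, plus strand), and no other annotated gene overlaps mir-195a. The mir-497b hairpin lies over mir-497a on the opposite strand.

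Total counts per library ran from 4.884 to 24.25 M (median 15.39 M) and were lower at 30 months (mean 9.888 M) than at 2 months (18.84 M). Only 2 libraries held under 6 M counts, 24 months replicate 4 and 30 months replicate 3. In the smallest library 3 counts, taken as the floor, equal 0.614 CPM, and such floors cover counting error only, because the kit adds no molecular identifiers. The blood label was matched by its markers: mir-451a and mir-144 of red cells, mir-223 of neutrophils and monocytes and mir-150 of lymphocytes had counts in all 25 libraries, whereas liver mir-122 held 131 counts in all libraries together. Of the muscle markers, mir-1a-1 and mir-1a-2 held 4 and 17 counts in all libraries together. Muscle mir-133a-1 and mir-133a-2 held 9696 and 9771, with counts in all 25 libraries. Libraries that stand apart as the lowest in mir-15a were 2 months replicate 2, 15 months replicate 5, 24 months replicate 2, 30 months replicate 2 and 30 months replicate 4. The mir-133a rows together were highest in 2 months replicate 2, then 15 months replicate 5 (200 CPM) and 24 months replicate 2 (87.8). They summed to 12.2 CPM in 30 months replicate 2 and 43.4 in 30 months replicate 4. The part of muscle RNA in these mir-15a levels was not tested. The pair under 6 M counts stand apart as the lowest in mir-195a. The index sequences in the column names, in alphabetical order, follow the ages apart from 2 libraries of 30 months, so index and age cannot be told apart. In this tissue, fewer cells of a type and less RNA per cell cannot be told apart.

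The rows of mir-16-1 and mir-16-2 held nearly the same count in every library. Their difference was at most 0.404% of their sum, with mir-16-1 higher in 18 libraries and mir-16-2 in 7. The difference divided by the square root of the sum should have a mean square near 1 where shared reads fall to either row at random. Its mean square over the 25 libraries was 1.05, with a lowest value of -1.18 (2 months replicate 3) and a highest of 2.18 (15 months replicate 2). A mean square is little moved by a small offset in the same direction, and the differences summed to 7875 counts toward mir-16-1. mir-497a and the overlapping mir-497b gave a mean square of 0.997, with 1 library, again 15 months replicate 2, at 3.72. Without that library the mean square was 0.463 for mir-497a and mir-497b, below that of a random split, and 0.895 for the mir-16 rows. The counting of reads that fit several rows and the use of strand are not stated in the sources used. The mir-16 rows are therefore read below as a measure of miR-16 as a whole and not of either locus, and without knowledge of strand mir-497a cannot be told apart from mir-497b.

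**Figure D1:**
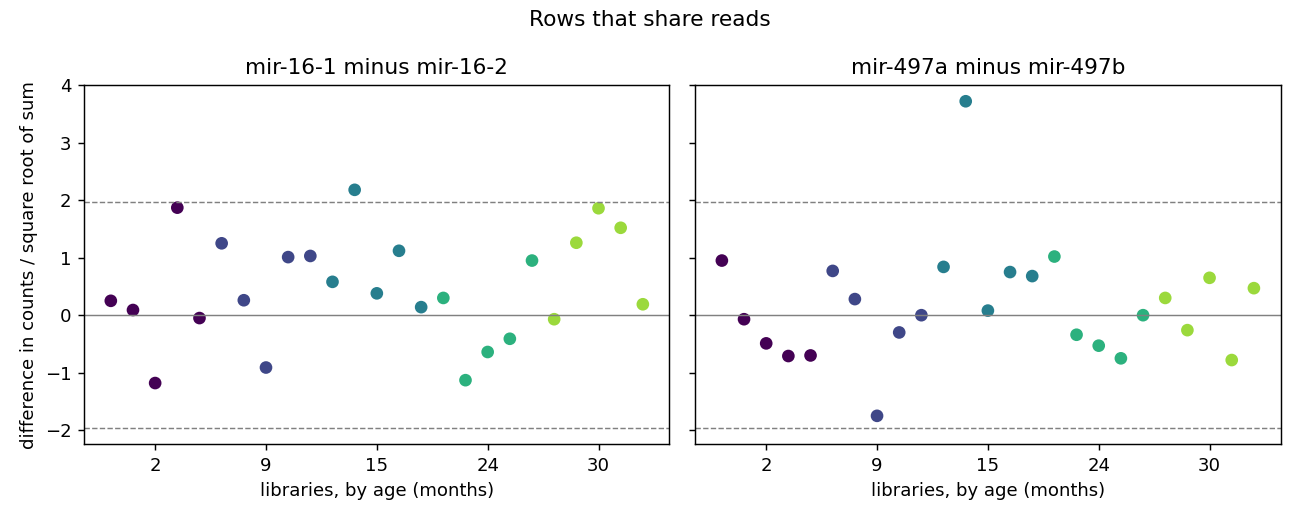
Difference in counts between mir-16-1 and mir-16-2 (left) and between mir-497a and mir-497b (right), divided by the square root of their sum, in the 25 libraries ordered by age. Each point is 1 library and dashed lines mark the range that holds 95% of a standard normal; 1 library lies outside it in each panel, 15 months replicate 2 at 2.18 and 3.72.

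The family's levels spanned mean levels from 1397 CPM for mir-15a and above that for miR-16 down to about 10 CPM for mir-497a. CPM values here are scaled with the trimmed mean of M-values (TMM) method, and since all 5′ strands are 21 or 22 bases long no length scaling was made. Among all hairpins tested, the mir-16 rows ranked 8 and 9 by mean CPM, mir-15a 33, mir-15b 44, mir-195a 103 and mir-497a 152. mir-16-2 was above mir-15a, mir-15b above mir-195a and mir-195a above mir-497a in 25 of 25 libraries. mir-15a was above mir-15b in 23 of 25 libraries, with a ratio of means of 2.03, and the exceptions were 24 months replicate 2 and 30 months replicate 2. The 6 rows together held 3.17% ± 1.17 of all counts at 2 months, 3.09% ± 1.3 at 9, 3.13% ± 1.28 at 15, 3.44% ± 1.12 at 24 and 2.67% ± 1.18 at 30 months (SD, n = 5). The mir-16 rows made up 93.3%, 92.7%, 93.3%, 92.8% and 91.6% of that sum, in the same order.

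miR-16, given here by the mir-16-1 row alone, had similar means at the middle ages and its lowest mean at 30 months, with wide overlap. At 2 months the mir-16-1 libraries had 15088, 8757, 19879, 23968 and 14803 CPM. At 30 months they had 14684, 5839, 15043, 7730 and 13464 CPM. The 30-month libraries were lower on average, but 3 of them lay within the range of the 2-month libraries and the other 2 lay below it. The means of mir-16-1 were 16499 ± 5745 CPM at 2 months, 14282 ± 4114 at 9, 14521 ± 4320 at 15, 13605 ± 3427 at 24 and 11352 ± 4263 at 30 months (SD, n = 5).

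mir-15a, the neighbour of mir-16-1, had the widest spread of the 6 rows. Its 2-month libraries had 1087, 823, 2156, 2457 and 1639 CPM, and its 30-month libraries had 1550, 404, 1741, 826 and 1616 CPM. At 30 months 3 libraries lay close together and 2 were far below them. At 24 months 4 libraries lay between 1377 and 1574 CPM and replicate 2 stood at 518 CPM. At 15 months the other 4 had 1333 to 1696 CPM and replicate 5 had 597 CPM. The highest library was 6.07 times the lowest.

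mir-15b had its highest means at the 2 oldest ages, within the spread of the others. Its 2-month libraries had 629, 421, 722, 965 and 607 CPM, and its 30-month libraries had 721, 622, 895, 624 and 933 CPM. All 5 of the oldest libraries fell within the range of the youngest. Its means were 669 ± 199 CPM at 2 months, 674 ± 118 at 9, 607 ± 127 at 15, 728 ± 178 at 24 and 759 ± 148 at 30 months (SD, n = 5).

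mir-195a had 83.9, 65.3, 62.5, 73.9 and 57.4 CPM at 2 months and 64.4, 47.1, 32.9, 66.3 and 72.1 CPM at 30 months. At 24 months it had 55.9, 60.2, 55.6, 36.6 and 60.9 CPM. The values of 36.6 and 32.9 CPM, the lowest of all 25, belong to the pair of libraries under 6 M counts. mir-497a had 10.6, 7.51, 10.4, 12.5 and 11.8 CPM at 2 months and 10.5, 5.8, 11.2, 7.81 and 11.5 CPM at 30 months. It was the least abundant row, with groups that overlapped at all ages, and mir-497a plus mir-497b summed to 21.4 ± 4.21 CPM at 2 months and 18.6 ± 4.32 at 30 months (SD, n = 5).

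**Figure D2:**
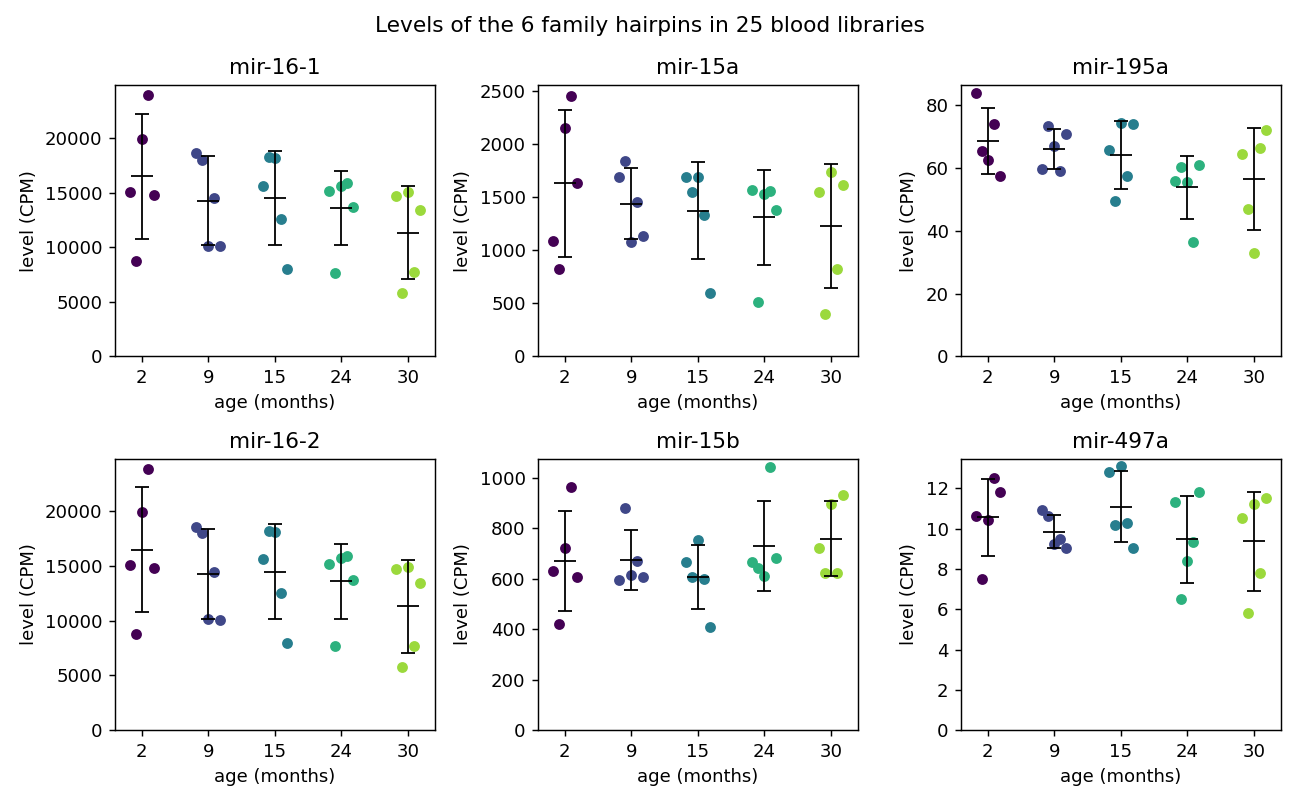
Level in CPM (linear axes from 0) of each of the 6 hairpins against age in months. Points are libraries, 5 per age, and the black mark and bar are the mean and SD; the low points of mir-15a at 15, 24 and 30 months are 597, 518 and 404 CPM, and the ages overlap for every hairpin.

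No member passed the test between any age and 2 months. edgeR's quasi-likelihood test with Benjamini-Hochberg adjustment over every tested hairpin called 0 of 6 members at 9 months, where 2.07% of all tested hairpins were called, and 0 of 6 at 15 months, where 1.48% were. It called 0 of 6 at 24 months against a background of 12.1%, and 0 of 6 at 30 months against 14.2%. The test of any difference among the 5 ages called 0 of 6 where 7.99% of hairpins were called, and the linear trend with age called 0 of 6 where 19.8% were. At an unadjusted p under 0.05 the counts were 0 in all of these except the trend, where mir-195a was the 1 member. Of all tested hairpins 7.69% were under that p at 9 months, 5.92% at 15, 24.6% at 24, 26.6% at 30 months, 20.4% for any age and 32.5% in the trend, so 1 of 6 is no more than the background. DESeq2 and limma-voom also called 0 of 6 in each comparison they were run on. No member had 30-month and 2-month CPM without overlap, compared with 10.7% of the tested hairpins.

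The intervals show how large a change remains possible. At 30 months against 2 months the log2 change of mir-16-1 was -0.54 (SE 0.29, 95% interval -1.14 to 0.06, edgeR adjusted p = 0.234), with mir-16-2 the same to 2 decimals. mir-15a was at -0.41 (SE 0.36, interval -1.16 to 0.34, adjusted p = 0.522). It was at -0.13 without 30 months replicate 2, and mir-16-1 at -0.31. mir-15b was the member above 0, at 0.18 (SE 0.20, interval -0.23 to 0.59, adjusted p = 0.614), and ran from 0.11 without 2 months replicate 2 to 0.40 without 2 months replicate 4. mir-195a was at -0.28 (SE 0.18, interval -0.65 to 0.10, adjusted p = 0.342), and at -0.08 without 30 months replicate 3. mir-497a was at -0.18 (SE 0.19, interval -0.56 to 0.21, adjusted p = 0.589).

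Across ages the members' values mostly lay below 0, with mir-15b as the usual exception. The median log2 change of the 6 rows was -0.14 at 9 months, -0.16 at 15, -0.28 at 24 and -0.34 at 30 months, beside medians over all tested hairpins of -0.01, -0.03, 0.00 and -0.04. miR-16 enters the family medians as 2 rows. With mir-16-1 alone, the middle value at 30 months was that of mir-195a, -0.28. Scaling by library totals instead of TMM moved the median of all hairpins to 0.36 at 24 months and 0.20 at 30 months. With that scaling mir-15a, mir-16-1, mir-195a and mir-497a turned above 0 at 24 months, and mir-497a at 30 months. The trend was -0.12 per 10 months for mir-195a on the log2 scale (SE 0.05, edgeR adjusted p = 0.115). It was -0.16 for mir-16-1 (SE 0.09, edgeR adjusted p = 0.208), -0.13 for mir-15a (SE 0.11, edgeR adjusted p = 0.421) and 0.07 for mir-15b (SE 0.06, edgeR adjusted p = 0.454). With 1 library left out these trends ran from -0.13 to -0.07 for mir-195a (the latter without 30 months replicate 3), from -0.18 to -0.09 for mir-16-1 and -0.16 to -0.06 for mir-15a (the latter values without 30 months replicate 2), and from 0.05 to 0.13 for mir-15b (the latter without 2 months replicate 4).

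**Figure D3:**
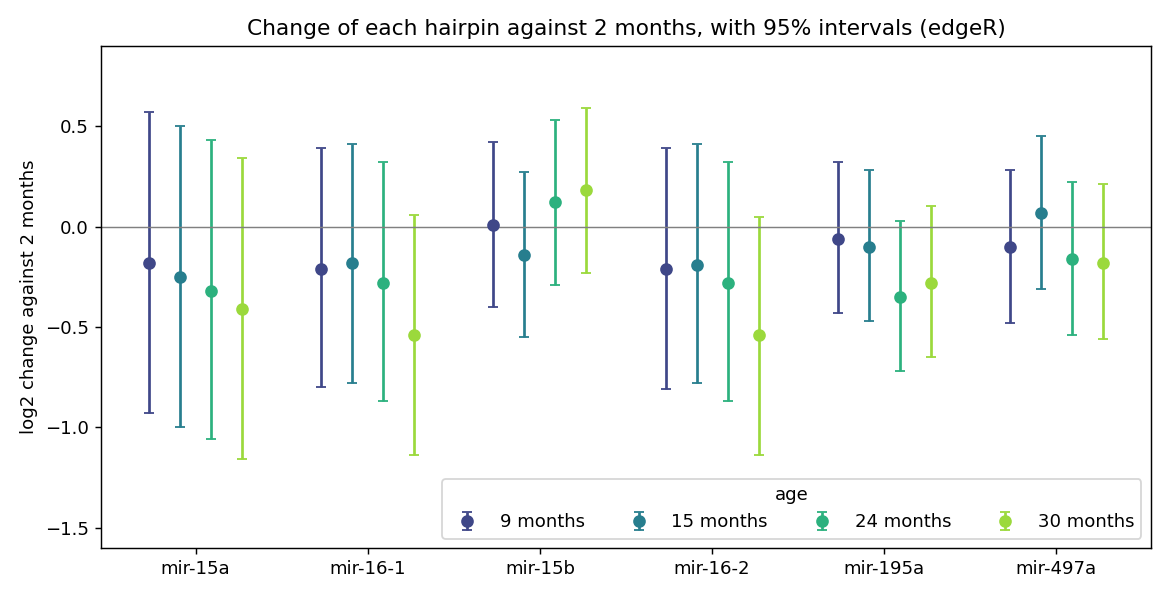
log2 change of each hairpin at 9, 15, 24 and 30 months against 2 months from edgeR. Points are estimates and bars their 95% intervals, n = 5 libraries per age; every interval includes 0, and at 30 months the estimates run from -0.54 for mir-16-1 to 0.18 for mir-15b.

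Ratios of counts within a library do not depend on how libraries are scaled, and in them mir-15b rose relative to miR-16 in the trend with age, though not at each step: the geometric means for every 100 counts of mir-16-2 were 4.13, 4.84, 4.29, 5.42 and 7.08 at 2, 9, 15, 24 and 30 months. For every 100 counts of mir-16-2 the 2-month libraries held 4.17, 4.8, 3.62, 4.04 and 4.1 counts of mir-15b. The 9-month libraries held 3.21, 4.88, 6.05, 4.65 and 6.03, and the 15-month libraries 4.28, 3.35, 4.15, 4.77 and 5.11. At 24 months they held 4.4, 8.33, 3.9, 6.57 and 4.98, and at 30 months 4.91, 10.7, 6, 8.14 and 6.94. All 5 of the 30-month libraries were above all 5 of the 2-month libraries, whereas the ages between overlapped both.

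The slope of the log2 ratio of mir-15b to mir-16-2 was 0.24 per 10 months (SE 0.07, p = 0.00202, permutation test over 25 libraries, two-sided, p = 0.0141 adjusted over the 7 ratios tested). Within each of the 6 sequencing lanes the slope was above 0, between 0.17 and 0.32, but each lane held few libraries. Lane 3 held only 9 months replicate 1, 15 months replicate 2 and 24 months replicate 3, and lane 4 held no library of 30 months. The slope over all lanes ran from 0.20 to 0.28 over 31 alternatives. It passed in all of them except without the 2-month libraries (0.28, permutation adjusted p = 0.122). At 30 months the ratio was 1.72 times that at 2 months, a log2 difference of 0.78 (SE 0.20, n = 5 each, exact permutation p = 0.00794, two-sided). That is the smallest p that 5 against 5 libraries allow, and adjusted over 7 ratios it is 0.0556. Since miR-16 5′ reads cannot be assigned to either locus, this ratio sets mir-15b against 1 row of miR-16 from both loci. It does not set mir-15b against its own cluster partner, and its size is per count of that row and not of all miR-16.

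A rise relative to miR-16 was common among other hairpins. Of all other tested hairpins set against mir-16-2 in the same way, 15.1% were called, 38 higher and 13 lower, and the median slope was 0.15. The slope of 87 of them was at least that of mir-15b, whose p adjusted over all of them was 0.0196 in the permutation test. Hairpins with all 30-month ratios to mir-16-2 above all 2-month ratios made up 4.15%, mir-15b among them.

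Of the other 6 ratios, 1 passed and did not hold under many alternatives. mir-15b to mir-15a had a slope of 0.24 per 10 months (SE 0.09, permutation p = 0.0118, adjusted over 7 ratios 0.0414). Set against mir-15a, 23 of the other tested hairpins were called higher and 14 lower, and over all of them the adjusted p of mir-15b was 0.0849. The ratio was 1.24 in 24 months replicate 2 and 1.54 in 30 months replicate 2, against 0.335 to 0.579 at 2 months. The call was lost in 14 of 31 alternatives. These include leaving out 2 months replicate 3 (adjusted p = 0.0677), 4 (0.0503) or 5 (0.0848), or 9 months replicate 1 (0.0675). They also include leaving out 15 months replicate 3 or 4 (0.0526 each), 24 months replicate 2 (0.0572) or 4 (0.063), or 30 months replicate 2 (0.131) or 4 (0.0707).

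mir-497a to mir-15b had a slope of -0.15 (SE 0.06, permutation p = 0.0215, adjusted 0.0501), at the edge of the threshold. Repeats of the permutation test with 20 random seeds gave adjusted p from 0.0461 to 0.0509 and called it with 15 of them, so the resampling itself decides this call; the 2 called ratios passed with all 20. It also passed when 1 library was left out in 8 of 25 cases. Those were 2 months replicate 4 (adjusted p = 0.0337), 9 months replicate 2 (0.0363) or 4 (0.0473), 15 months replicate 1 (0.0472) or 5 (0.0358), 24 months replicate 1 (0.0346) or 5 (0.0325), and 30 months replicate 1 (0.0418). mir-15a to mir-16-1 kept to a ratio of 0.0964 at 2 months and 0.102 at 30 months, with a slope of 0.00 (SE 0.05, permutation p = 0.982). This ratio too sets mir-15a against 1 row of miR-16 from both loci and not against its own neighbour. The slope of mir-195a to mir-497a was -0.07 (SE 0.08, permutation p = 0.401) and that of mir-195a to mir-15a was 0.03 (SE 0.15, permutation p = 0.853). None of the 7 ratios passed between 30 and 2 months after adjustment.

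**Figure D4:**
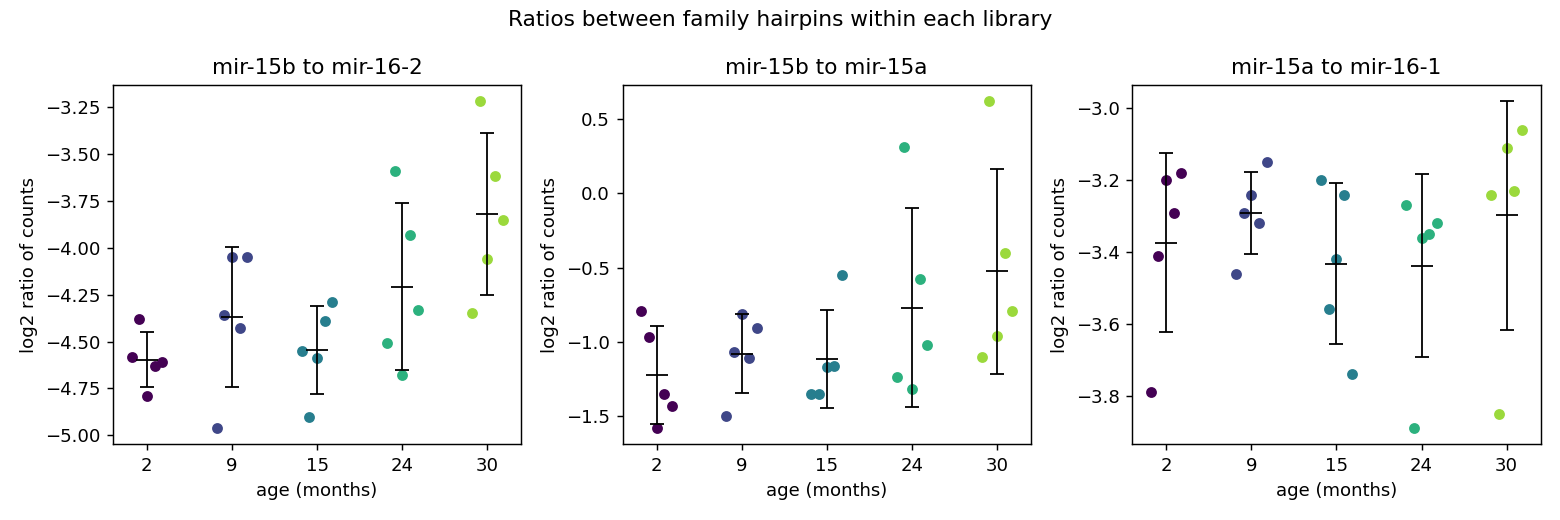
log2 ratio of counts between family hairpins within each library against age in months. Points are libraries and the black mark and bar are the mean and SD, n = 5 per age; mir-15b to mir-16-2 (left) is higher in all 30-month than in all 2-month libraries, mir-15b to mir-15a (middle) has its 2 highest points at 24 and 30 months, and mir-15a to mir-16-1 (right) has a slope of 0.00.

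How closely a pair of hairpins varied together was described by the SD over 25 libraries of the log2 ratio of their CPM, where a smaller value means more alike. mir-15a and mir-16-1 had an SD of 0.23, and 1 of 146 other hairpins of at least 10 CPM was closer to mir-15a than mir-16-1 was. mir-15b and mir-16-2 had an SD of 0.43, and 73 of the 146 were closer to mir-15b. For mir-195a and mir-497a the SD was 0.39, with 53 of 146 closer to mir-195a. mir-15a had the same SD of 0.23 to mir-16-2, on another chromosome, and mir-15b the same SD of 0.43 to mir-16-1. The values with mir-16 rows thus describe miR-16 as a whole and not a cluster partner. All of these SDs are descriptions over the 25 libraries, and the scaling of a library cancels in its ratios.

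The hairpins outside the family most like each member differed between the clusters. mir-93 (SD 0.18), mir-17 (0.24) and mir-221 (0.26) were the closest of these to mir-15a, beside a median of 0.71 over all 146. mir-17 (0.17), let-7c-2 (0.26) and mir-21a (0.26) were the closest of these to mir-16-1, beside a median of 0.60. For mir-15b they were the copies mir-103-2 and mir-103-1 (0.21 each) and mir-130b (0.22), beside 0.43. The closest to mir-195a were the overlapping mir-451b and mir-451a (0.20 each), the latter a red-cell microRNA, and mir-18a (0.24), beside 0.43. For mir-497a they were mir-1839 (0.20), mir-106b (0.20) and mir-872 (0.21), beside 0.40.

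Markers of red cells did not all go with mir-15a. mir-144, a microRNA of maturing red cells singled out after its values were seen, stood in 4 of the 5 libraries lowest in mir-15a at 447 CPM in 15 months replicate 5, 228 in 24 months replicate 2, 152 in 30 months replicate 2 and 280 in 30 months replicate 4, beside 1193 ± 217 CPM at 2 months (SD, n = 5). The other of the 5 was 2 months replicate 2, with 823 CPM of mir-15a and 1111 CPM of mir-144. Libraries with ordinary mir-15a were also low in mir-144: 24 months replicate 4 (471 CPM, with mir-15a at 1557), 30 months replicate 3 (471, with 1741) and 30 months replicate 5 (518, with 1616). The summed red-cell list was the highest of its age in 15 months replicate 5 (857237 CPM), 24 months replicate 2 (775811) and 30 months replicate 4 (778398), and the second highest in 30 months replicate 2 (663078). Most of that sum came from mir-486a and mir-486b, whose counts are near copies and both enter it. mir-451a alone was the highest of its age in 30 months replicate 4 (95251 CPM). It was the second highest in 15 months replicate 5 (88501), 24 months replicate 2 (74005) and 30 months replicate 2 (85501). At 30 months against 2 months 14.2% of all tested hairpins were called, 31 higher and 17 lower. Over the red-cell list (mir-451a, mir-144, mir-486a and mir-486b) 1 of 4 was lower at 30 months than at 2 months and none higher. Its summed level was 501702 to 778398 CPM at 30 months and 717002 to 858407 at 2 months. Of the neutrophil and monocyte list 3 of 4 were higher at 30 months, with sums of 7971 to 9709 and 6905 to 8399 CPM. Most of these sums came from mir-142a, the hairpin of that list not called (log2 change 0.16, edgeR adjusted p = 0.656). Of the lymphocyte list 0 of 5 passed (688 to 1237 and 1001 to 1327 CPM), and of the platelet and endothelium list 2 of 3 were lower (3.13 to 8.2 and 12.3 to 17.3 CPM). These were mir-126a, with a mean of 5.05 CPM at 30 months, and mir-199a-1, with 0.351 CPM. The latter is near the floors of 3 counts at that age, 0.23 to 0.522 CPM. No hairpin of these lists was at 0 in every library. The part of these cell types in the ratio of mir-15b to miR-16 was not tested.

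Other carriers of the family's seed were scarce apart from mir-322, the neighbour of mir-503 in another cluster. In RefSeq 11 hairpins hold the seed in a mature strand, all of them in the table. Of 8 relatives by seed, name or overlap, 5 were at 0 in every library and 3 were tested: mir-497b, mir-322 and mir-503. mir-322 had 28.3 ± 6.17 CPM at 2 months and 52 ± 25.9 at 30 months (SD, n = 5). The log2 change against 2 months was 0.89 at 24 months (SE 0.30, edgeR adjusted p = 0.0522) and 0.87 at 30 months (SE 0.30, edgeR adjusted p = 0.0504), neither past the threshold. In the trend it rose by 0.36 per 10 months on the log2 scale (SE 0.09, edgeR adjusted p = 0.00718), a call that was lost without the 2-month libraries (0.47, adjusted p = 0.06). Its highest libraries were 24 months replicate 4 with 112 CPM and 30 months replicate 3 with 94.7 CPM, the pair under 6 M counts, and without them the slope was 0.21 (adjusted p = 0.00674). Its ratio to mir-16-2 rose by 0.48 per 10 months (permutation p = 1e-05, the smallest the resampling can give, adjusted over all hairpins so tested 0.000562).

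Among 10 other microRNAs linked to the cell cycle, 8 were tested. Between each age and 2 months 0 of 8 passed, and in the trend 0 rose and 2 fell: mir-18a at -0.11 per 10 months (SE 0.04, edgeR adjusted p = 0.0305) and mir-20a at -0.41 (SE 0.15, adjusted p = 0.0449). With 19.8% of all tested hairpins called in the trend, 2 of 8 is near the background. Both come from the same primary transcript as mir-17, the hairpin closest to mir-16. The median of the 8 at 30 months was -0.33, beside -0.34 for the 6 family rows, in which miR-16 enters as 2 rows.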

How the data were processed

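The authors deposited 1 table of raw counts of reads per microRNA hairpin. Per the labels' protocols the library kit was TruSeq smallRNA. Per the submitters' processing notes, bcl2fastq 1.8.4, Trimmomatic 0.36 and SAMtools 1.3.1-9 were used in roles not given. The sources used here name no aligner, counter, build, strand setting or rule for shared reads. Ages came from the labels.

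From the counts, edgeR 4.0.16 (R 4.3.3; TMM, filterByExpr, robust quasi-likelihood F test) was fitted to all 25 libraries, and p-values were Benjamini-Hochberg adjusted over all tested hairpins at a threshold of 0.05. The filter kept at least 99.992% of each library's counts. Ratios used log2 of counts plus 0.5, with 100000 permutations for slopes or exact permutation for 30 against 2 months. The edgeR fit of 30 against 2 months was run on simulated data, and the ratio tests were not. The closest same-age pair of 50 had a chi-square per degree of freedom of 124.9, so these pairs differed by more than counting error. Pairs of different ages were not compared, and separate libraries from the same animal cannot be seen this way. Alternatives were DESeq2 1.42.0, limma-voom (limma 3.58.1), other scalings and filters, thinned libraries, lane terms and left-out libraries. Members are named in every comparison, whether or not they pass; likeness names the 3 closest hairpins outside the family of at least 10 CPM. Members, lists and tests were chosen with earlier results of these data known, and the test of every hairpin against mir-16-2 and mir-15a and the repeats over 20 random seeds were added after seeing the family's ratios.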

Additional observations from a re-analysis of the deposited data

Results flagged for a closer look

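Of 65 groups of 5 libraries examined for a library far from the other 4, 10 gave one, and chance gives about 1 in 20 groups (3.25 here). The rows share libraries and reads, so these are not 10 separate events. In 24 months replicate 2, mir-15a stood at 518 CPM (others 1377 to 1574), mir-16-1 at 7659 (others 13720 to 15850) and mir-16-2 at 7694 (others 13677 to 15880), and the log2 ratio of mir-15a to mir-16-1 at -3.89 (others -3.36 to -3.27). The same ratio was -3.85 in 30 months replicate 2 (others -3.24 to -3.06). In 15 months replicate 5 the log2 ratio of mir-15b to mir-15a was -0.55 (others -1.35 to -1.16) and that of mir-195a to mir-15a was -3.01 (others -4.97 to -4.51). In 24 months replicate 4, of 4.884 M counts, mir-15b stood at 1044 CPM (others 611 to 681) and mir-195a at 36.6 (others 55.6 to 60.9). In 9 months replicate 2 mir-15b stood at 879 CPM (others 597 to 672).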

How the results depend on the processing

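Counts of members called stayed at 0 of 6 in each comparison under all alternatives run. Over 1075 member values from these alternatives, none passed, the smallest adjusted p was 0.0822 and 33 had the other sign. All hairpins called ranged from 3 to 8 at 9 months (7 as reported), 2 to 5 at 15 (5), 11 to 72 at 24 (41), 15 to 58 at 30 months (48), 11 to 44 for any age (27) and 9 to 89 for the trend (67). Called higher and lower at 30 months numbered 31 and 17 as reported, and 51 and 6 with library totals. With library totals the sign turned for mir-195a at 9 (0.07), 15 (0.03) and 24 months (0.02), mir-497a at 9 (0.03), 24 (0.21) and 30 months (0.08) and in the trend (0.05), mir-15b at 15 months (0.00), and mir-15a (0.07), mir-16-1 (0.11) and mir-16-2 (0.11) at 24 months. In thinned libraries it turned for mir-15b (-0.01) and mir-195a (0.03) at 9 months, for mir-497a at 24 months (0.12) and in the trend (0.02), and for mir-16-1 to mir-16-2 in the trend and at 30 months (-0.00 each). A filter of 10 CPM put mir-15b at 9 months at 0.00. Without the libraries under 6 M counts, chosen after seeing the data, mir-15b at 24 months was at -0.01, the slope of mir-15a to mir-16-1 at -0.02, and mir-195a to mir-497a at 0.02 in the trend and 0.13 at 30 months. The slope of mir-15a to mir-16-1 was -0.00 without the 2-month libraries and -0.01 with lane as a term, also added after seeing the data. The cause of these turns was not tested.

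Leaving out 1 library at a time gave, at 9 months, -0.32 to 0.01 for mir-15a, -0.09 to 0.19 for mir-15b and -0.08 to 0.03 for mir-195a. At 15 months it gave -0.21 to 0.06 for mir-15b, -0.28 to 0.02 for mir-16-1, -0.29 to 0.01 for mir-16-2 and -0.12 to 0.03 for mir-195a. At 24 months mir-15b ran from -0.03 to 0.32 and mir-497a from -0.23 to 0.02, and at 30 months mir-497a from -0.22 to 0.01. The slope of mir-15a to mir-16-1 ran from -0.03 to 0.03 and of mir-195a to mir-15a from -0.05 to 0.11. At 30 months mir-15a to mir-16-1 ran from -0.03 to 0.21, mir-195a to mir-15a from -0.14 to 0.52 and mir-195a to mir-497a from -0.25 to 0.13. Ratios called in the trend (2 as reported) numbered 1 in thinned libraries, 1 without the libraries under 6 M counts, 1 with lane as a term, 0 without the 2-month libraries, 1 to 3 with 1 library left out and 3 with another random seed, added after seeing the data, where mir-497a to mir-15b moved from an adjusted p of 0.0501 to 0.0496. The cause was not tested. No paired analysis was possible because replicate numbers follow the order of the samples and pair none across ages.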
